A study of Homo sapiens with 16 samples.

Results

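Histone genes were taken from the GENCODE annotation of GRCh38 as the protein-coding genes whose symbols begin with H1-, H2A, H2B, H3-, H3C, H4C or MACROH2A, which gave 95 of 20033 coding genes. Of these, 70 are replication-dependent genes (H1-1 to H1-6 and symbols beginning with H2AC, H2BC, H3C or H4C) and 25 are other histone genes, called variants here. The rule uses gene symbols and no measured value. The values come from MeRIP-seq, in which an antibody against N6-methyladenosine (m6A) enriches methylated fragments of total RNA and the peaks of each immunoprecipitated (IP) library are called over an unenriched input. The 2 lines compared, both human prostate cancer cells, were harvested at day 3. C4-2B is sensitive to enzalutamide, a drug used against prostate cancer, and MDV-R was obtained from C4-2B by serial desensitization with that drug and, per the methods, was kept in it as the resistant line. The titles of the MDV-R samples name T24R2, and the cell line field, MDVR, was followed. Both are labelled wild type, and each had 4 IP libraries with a peak list of their own and 4 input libraries. MDV-R is a single derived line, so that resistance and other differences between the lines cannot be told apart. The labels do not say whether replicates came from separate cultures, and p-values measure the spread between these libraries. All 10 genes of a list of prostate luminal markers, including KLK3 and HOXB13, had an exonic peak, 6 of them in all 8 lists.

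Most messenger RNAs end in a poly(A) tail, but those of the replication-dependent histone genes end just after a short stem-loop that is bound by SLBP, the protein that carries them through processing and translation. These genes lie in clusters, have no introns in their main transcript and are transcribed in S phase, when new DNA needs new nucleosomes. Histone variants such as H3.3, H2A.Z and macroH2A are made throughout the cell cycle, mostly from spliced and polyadenylated mRNAs. m6A is written by the METTL3 and METTL14 complex, mainly within the sequence GGAC and related motifs, and is most often found near stop codons, in 3′UTRs and in long exons.

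The stem-loop is shown first, since a peak beyond it lies outside the short histone mRNA. A peak before it can belong to that mRNA or to a longer transcript of the same gene. The histone stem-loop consensus of 16 bases was searched on the strand of the gene in the 100 nt after the last codon, and was found in 69 of the 70 replication-dependent genes, in 3 of the 25 variants (H2AX, H3-4 and H3-7) and in 0 of 19938 other coding genes. It began a median of 39 nt after the last codon, between 26 and 71 nt, in the replication-dependent genes. The replication-dependent gene without it was H2BC12L. The stem-loops of genes described below, in capitals and 5′ to 3′ as DNA, were
H3C6: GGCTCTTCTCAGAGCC
H3C4: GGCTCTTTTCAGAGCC
H2BC5: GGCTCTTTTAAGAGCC
H4C8: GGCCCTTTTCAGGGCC
H4C14: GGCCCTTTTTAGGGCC
H2AX: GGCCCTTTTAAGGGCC
The form shown for H3C4 was the most common and was carried by 40 of the replication-dependent genes. H2AX, the variant phosphorylated at DNA breaks, is known to be made both as a stem-loop mRNA and as a longer polyadenylated mRNA.

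Exonic summits, the positions of highest enrichment within peaks, were rarer in histone genes than in coding genes at large. At least 1 list placed a summit in an exon of 26 of the 95 histone genes, against 50.2% of all coding genes. These were 21 of the 70 replication-dependent genes and 5 of the 25 variants. All 8 lists did so in 6 histone genes, against 26.6% of coding genes. They included H2BC5, H4C8, H4C14 and H4C15 among the replication-dependent genes and H2AX among the variants. In the canonical transcript alone, 22 histone genes had a summit in at least 1 list, against 46.7% of coding genes. Summits within 100 nt of each other were joined into sites, and the 26 genes held 36 sites, of which 26 lay in replication-dependent genes and 10 in variants. The summits of H2AC17 and H3C12 are the same, in exons that both genes share, and were counted for both.

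**Figure D1:**
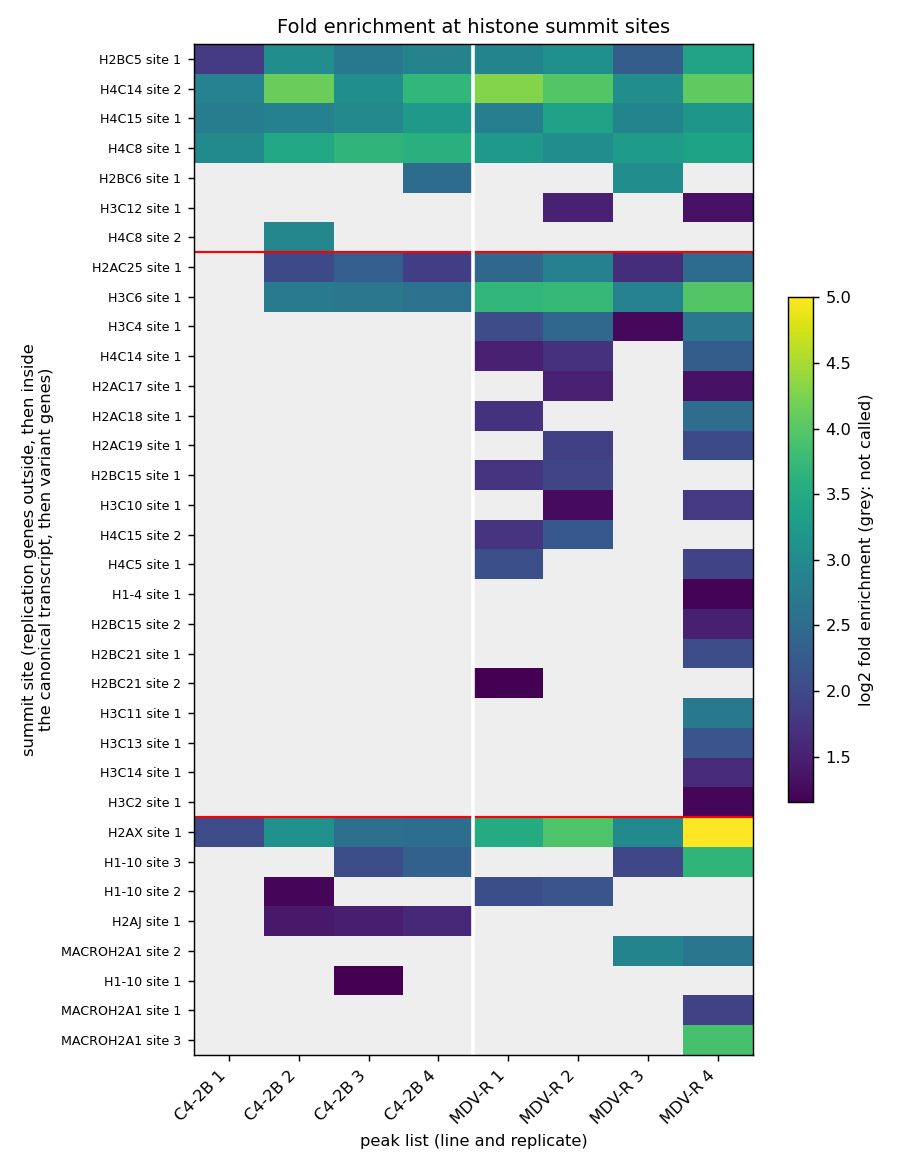
Fold enrichment, as log2 and by colour, at 34 histone summit sites (rows) in each of the 8 peak lists (columns), with grey where no summit was called; red lines separate replication-dependent sites outside the canonical transcript, those inside it and variant sites. The 4 replication-dependent sites called in all 8 lists are the top 4 rows, and most rows of the middle block hold colour in MDV-R lists alone.

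Many histone genes share long stretches of sequence, where uniquely mapped reads cannot be placed. Among the replication-dependent genes, 7 had no stretch of 50 nt in the canonical transcript that occurs once in the genome, and 9 had under 10% of such stretches, as did 4 of the variants. The median replication-dependent gene had 98.7% single-copy stretches. At the sites of H4C14 and H4C15, of H2AC18 and H2AC19 and of H3C14, no stretch of 50 or 150 nt was single-copy, so that values printed for these genes cannot be assigned to one copy. Peaks stood at 7 such sites although the methods kept uniquely mapped reads alone, and how reads came to be placed there was not tested. Of 48 replication-dependent genes with 90 to 100% single-copy stretches, 12 had an exonic summit, and of 14 with at most 50%, 6 had one.

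The replication-dependent genes that were called in all 8 lists were called far beyond their stem-loop, with distances counted along the genome and introns included. All 4 had the summit in an exon that the canonical transcript does not contain. In H2BC5, an H2B gene, it lay 12470 nt downstream of the stem-loop in the 3′UTR of exon 2 of the 2 exons of a spliced coding transcript (ENST00000289316). In H4C8, an H4 gene, it lay 7243 nt downstream in the last of 3 exons of a transcript annotated as a target of nonsense-mediated decay (ENST00000634956). In H4C14 and H4C15, a pair of H4 genes of near-identical sequence, it lay 1335 and 1402 nt downstream in the second exon of such transcripts. In total 7 of the 26 sites in replication-dependent genes lay outside the canonical transcript, and 0 of the 70 genes had a summit in the canonical transcript in all 8 lists, against 24.8% of coding genes. Of the 16 replication-dependent genes with an annotated transcript of over 1 exon, 4 were called in all 8 lists, a share close to the 26.6% of all coding genes.

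**Figure D2:**
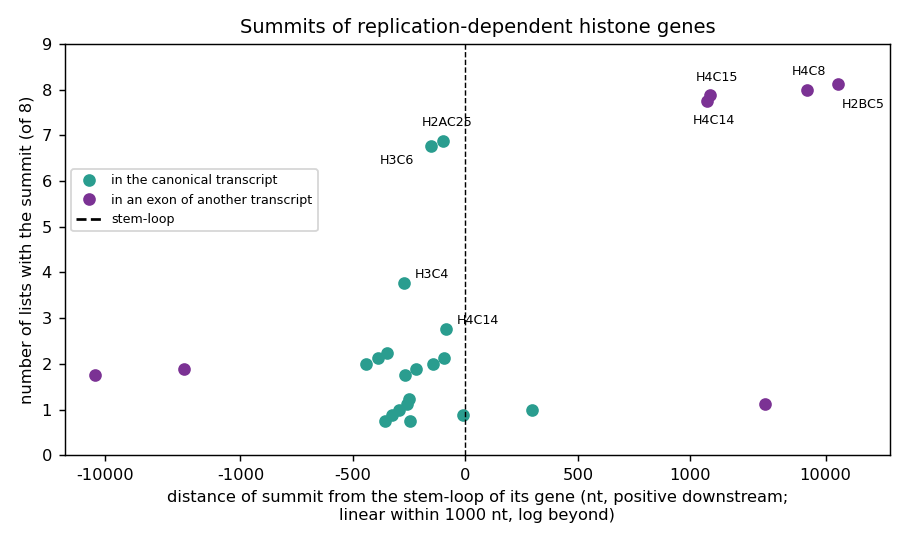
Distance of each summit site in a replication-dependent gene from the stem-loop of that gene (horizontal, nt along the genome with introns included, positive downstream, linear within 1000 nt and log beyond) against the number of lists that called it (vertical, of 8, points offset to avoid overlap). The 4 sites called in all 8 lists lie over 1000 nt downstream, and the sites of the canonical transcript lie around and before the stem-loop.

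The H4C14 site (chr1:149833949-149834686) was the strongest of them. IP tags at the summit, given as CPM, the tag count scaled to the IP total of its library, were 71.3, 101, 108 and 99.6 in C4-2B replicates 1 to 4 and 131, 122, 116 and 107 in MDV-R. C4-2B replicate 3 lay above MDV-R replicate 4, so the lines overlapped. The fold enrichment at this site lay between 7.25 and 19.6. At the H4C15 site (chr1:149858969-149859760) the tags were 21.6, 23.8, 28.9 and 26.6 CPM in C4-2B and 32.2, 30.8, 38.9 and 27.9 CPM in MDV-R, again with overlap. At the H2BC5 site, in a merged region that also covers a summit of the neighbouring H2BC6 (chr6:26170697-26172587), they were 34.0, 40.6, 41.8 and 47.5 CPM in C4-2B and 48.8, 47.8, 55.5 and 45.7 CPM in MDV-R. These 3 sites were each higher on average in MDV-R, with one MDV-R library inside the C4-2B range at H2BC5 and H4C15.

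The H4C8 site went the other way. In the region chr6:26277706-26278084 the tags were 28.2, 27.7, 49.3 and 39.4 CPM in C4-2B and 16.6, 15.9, 20.4 and 16.7 CPM in MDV-R. Every C4-2B library was above every MDV-R library. The local background, which the peak caller took from the input around the summit and is given here over the average background of the library, came to 7.80, 4.87, 8.63 and 6.57 in C4-2B, against 2.36, 3.03, 3.72 and 1.77 in MDV-R, also without overlap. A second H4C8 site, 3547 nt beyond the stem-loop, was called in C4-2B replicate 2 alone. It was the one site outside the canonical transcripts with GGAC, the core of the m6A motif, within 50 nt.

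Summits in the canonical, intronless transcript were mostly calls in MDV-R. There were 19 such sites, 17 of them in coding sequence, and 17 were called in no C4-2B list. The canonical transcript of these genes has a median length of 487 nt and the peaks at these sites a median width of 441 nt, so that a peak is about as wide as the mRNA is long. H2AC25 and H3C6 were the exceptions, named after their values were seen, with calls in 3 C4-2B and 4 MDV-R lists each. At H2AC25, an H2A gene outside the main cluster, the summit lay 100 nt before the stem-loop, with 52.5, 58.9 and 51 CPM in C4-2B replicates 2 to 4 and 62.1, 72.2, 55.5 and 50.2 CPM in MDV-R, so the lines overlapped. At H3C6, an H3 gene, the summit lay 155 nt before the stem-loop. Its tags were 43.6, 42.9 and 39.4 CPM in C4-2B replicates 2 to 4 and 45.5, 45.7, 51.6 and 45.7 CPM in MDV-R. The MDV-R values were the higher at H3C6, without overlap, and C4-2B replicate 1 had no call at either gene.

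H3C4 was the replication-dependent gene called in 4 MDV-R and 0 C4-2B lists, a pattern found in 1.24% of coding genes. Its summit lay in coding sequence, 272 nt before the stem-loop, with 67.7, 80.7, 82.8 and 72.5 CPM and a fold enrichment of 4.19, 5.50, 2.37 and 6.44 in MDV-R replicates 1 to 4. The summit also lies in an exon of ENSG00000282988 on the same strand, so these tags cannot be assigned to H3C4 alone. C4-2B has no value there, since the lists hold called peaks alone, and absence of a call is not absence of signal. The remaining sites in canonical transcripts were called in 1 to 3 MDV-R lists. H1-4, a linker histone of the cluster, was called in MDV-R replicate 4 alone, at 109 CPM and a fold enrichment of 2.29, and H1-2 had no peak in any list. The canonical H4C14 site was called in MDV-R replicates 1, 2 and 4 at 133, 127 and 119 CPM.

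The windows of 28 bases below are from the canonical H3 summits that had GGAC within 50 nt. They are shown because the motif recurs at fixed positions of the shared coding sequence. The canonical H3 summits of H3C2, H3C11 and H3C14 had no GGAC within 50 nt. Of the genes shown, H3C13 was called in MDV-R replicate 4 alone and H3C10 in 2 MDV-R lists and no C4-2B list. GGAC lay 18, 7, 43 and 38 nt after the summits of H3C6, H3C10, H3C4 and H3C13. Each is read 5′ to 3′ on the strand of the gene with the GGAC nearest the summit in capitals. The H3C13 window ends in a further GGAC, at base 243 of the coding sequence, left in lower case.
H3C6, chr6:26225460-26225487, plus strand: ggggcttttcgaGGACaccaacctgtgc
H3C10, chr6:27810379-27810406, plus strand: ggggctctttgaGGACaccaacctgtgc
H3C4, chr6:26197005-26197032, minus strand: tgagatcgcgcaGGACttcaagactgat
H3C13, chr1:149813436-149813463, minus strand: cgagatcgcgcaGGACtttaagacggac
The first pair holds the GGAC at base 318 of the coding sequence and the second pair the one at base 231. GGAC stood at base 231 in 12 of the 15 H3 genes compared (H3C genes with H3-3A and H3-3B) and at base 318 in 6 of 15. H3-3A, the intron-containing gene of the H3.3 variant, also holds it at base 231. Over all histone coding sequences, 50 of 70 replication-dependent genes and 20 of 25 variants contained GGAC at least once, at 2.93 and 4.65 copies per 1000 nt.

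GGAC was less frequent near histone summits as a whole. Read in the sense of the transcript, it stood at most 50 nt from 29.6 ± 8.70% of exonic histone summits and 47.2 ± 1.19% of those of other coding genes (SD over the 8 lists), and was lower for the histone genes in 8 of 8 lists. Without the pairs of identical sequence the histone share was 36.9 ± 9.33%, lower in 7 of 8 lists. With summits in the canonical transcript alone, the shares were 48.0 ± 16.8% and 47.8 ± 1.15%, and the histone share was the lower in 4 of 8 lists. Among the sites, GGAC was near 6 of 19 in canonical transcripts of replication-dependent genes, 1 of 7 outside them and 4 of 8 in canonical transcripts of variants. Histone lists hold only 7 to 27 summits each, which limits the precision of these shares.

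**Figure D3:**
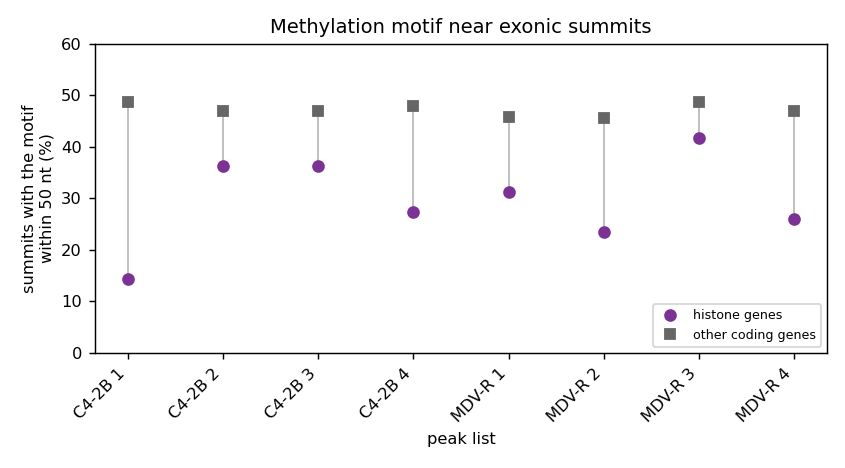
Share of exonic summits with GGAC within 50 nt (vertical, %) in each of the 8 peak lists (horizontal), for histone genes (circles) and other coding genes (squares), with a grey line joining both values of a list. The histone share is between 14.3 and 41.7% and lies below that of other coding genes in every list.

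The number of histone genes called per list asked whether the lines differed. C4-2B lists had an exonic summit in 6, 10, 10 and 11 histone genes and MDV-R lists in 14, 15, 12 and 24. The means were 9.25 ± 2.22 and 16.25 ± 5.32 genes (SD, n = 4), with an exact permutation p of 0.0286 (two-sided), a value below which 4 against 4 lists cannot go. Replication-dependent genes numbered 4, 6, 6 and 7 in C4-2B and 11, 12, 8 and 20 in MDV-R (5.75 ± 1.26 against 12.75 ± 5.12, SD, n = 4; p = 0.0286 by exact permutation). In their canonical transcripts alone there were 0, 2, 2 and 2 against 9, 9, 3 and 16 genes (1.5 ± 1.00 and 9.25 ± 5.32, SD, n = 4; exact permutation p = 0.0286). Variants numbered 2, 4, 4 and 4 against 3, 3, 4 and 4, with a mean of 3.5 in each line (SD 1.00 and 0.577, n = 4; exact permutation p = 1).

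List size and input depth also differed between the lines. The lists held 13191, 24746, 23254 and 23275 peaks in C4-2B and 23880, 27131, 25852 and 30645 in MDV-R, where replicate 4 had both the longest list and the most histone genes. Input totals, inferred from the background values of the peak lists and not counted from reads, were 0.901, 1.23, 1.09 and 0.914 M tags in C4-2B. They were 2.48, 2.97, 1.60 and 2.43 M in MDV-R. Within each line the library with the fewest histone genes had the shallowest input, and the one with the most did not have the deepest. IP totals, also inferred, were 0.864 to 1.21 M tags and did not separate the lines (exact permutation p = 0.6). All coding genes called averaged 7235.5 ± 956 per C4-2B list against 8210.75 ± 431 per MDV-R list (SD, n = 4; p = 0.0571 by exact permutation). With each list limited to its strongest peaks at the size of the smallest list, the histone count averaged 8 ± 1.83 for C4-2B against 9.25 ± 0.5 for MDV-R (SD, n = 4; p = 0.4 by exact permutation), and the replication-dependent count 4.75 ± 0.957 and 5.75 ± 0.957 (exact permutation p = 0.314, n = 4). In canonical transcripts the latter came to 1 ± 0.816 and 3.5 ± 1.73 (n = 4; p = 0.114 by exact permutation). Line and input depth cannot be told apart in the full counts. Without MDV-R replicate 4 the histone difference fell from 7 to 4.42 genes and the replication-dependent one from 7 to 4.58, and leaving out any C4-2B library gave an exact permutation p of 0.0571 for both.

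Pooled over lists, 15 of the 95 histone genes had an exonic summit in MDV-R lists alone, against 7.08% of coding genes, and 1 in C4-2B lists alone, against 2.97%. The 15 were 14 replication-dependent genes and MACROH2A1, and the gene called in C4-2B alone was H2AJ.

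**Figure D4:**
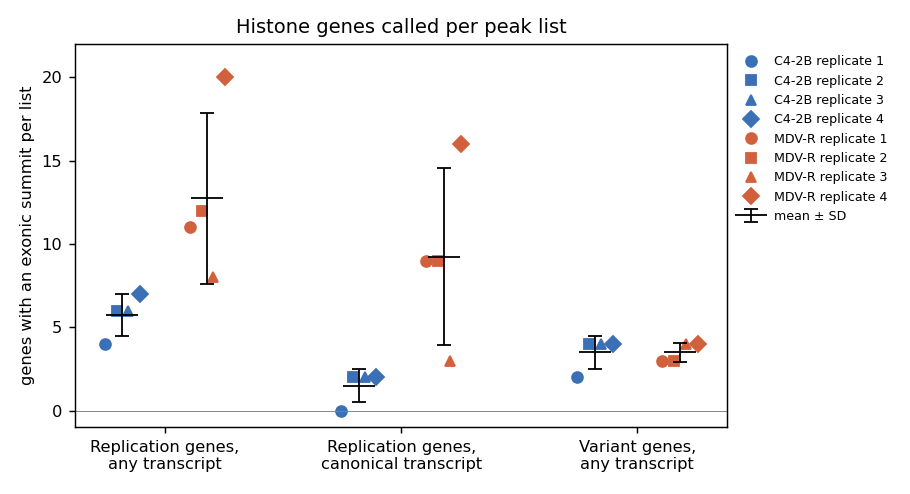
Number of histone genes with an exonic summit in each peak list (vertical), for replication-dependent genes in any transcript, the same in the canonical transcript and variants; symbols are single lists, blue for C4-2B and orange for MDV-R, and bars give the mean ± SD over 4 lists. The MDV-R lists lie above the C4-2B lists in the first and second groups, from 8 to 20 against 4 to 7 in the first, and overlap them for the variants.

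Among the variants, H2AX held the strongest histone site. Its summit lay in the 3′UTR, 734 nt beyond the stem-loop and so in the longer mRNA, in the region chr11:119093911-119095503, and ranked on average at percentile 97.5 of its list by −log10 p. A GGAC stood 24 nt before the summit, in capitals in
H2AX, chr11:119094175-119094202, minus strand: tgcctcctaggaGGACatttaggggagg
The tags were 205, 247, 263 and 281 CPM in C4-2B and 193, 212, 193 and 193 CPM in MDV-R, with C4-2B replicate 1 inside the MDV-R range. The local background stood at 148, 83.5, 129 and 141 times the library average in C4-2B, against 47.1, 38.4, 71.3 and 14.8 in MDV-R, without overlap. Fold enrichment came to 4.09, 8.59, 5.96 and 5.86 in C4-2B, against 11.5, 15.4, 7.83 and 32.1 in MDV-R, where MDV-R replicate 3 was below C4-2B replicate 2. Thus fewer tags stood over a lower background in MDV-R.

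H1-10, a linker histone variant, had summits in 3 C4-2B and 4 MDV-R lists at 3 sites of its single exon (chr3:129314992-129316555), in the 5′UTR and in coding sequence, and each site had a GGAC within 50 nt. The strongest peak of each list had 108, 110 and 116 CPM in C4-2B replicates 2 to 4 and 115, 120, 103 and 124 CPM in MDV-R, with overlap. Its summit lay in coding sequence in C4-2B replicate 2 and MDV-R replicates 1 and 2, and in the 5′UTR in the other lists with a call. These values thus mix sites. The coding site in the middle also lies in an exon of the antisense gene H1-10-AS1. H2AJ, a replication-independent H2A, had a summit in coding sequence (chr12:14774355-14774839) in C4-2B replicates 2 to 4 at 143, 161 and 162 CPM with a fold enrichment of 2.67, 2.79 and 2.98, and no MDV-R list called it.

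MACROH2A1, which carries a large domain beside its histone fold, had exonic summits in MDV-R replicates 3 and 4 alone. A region towards its 3′ end (chr5:135342951-135344670) was called in 4 MDV-R and 0 C4-2B lists, a pattern found in 3.59% of merged regions, with the strongest summit in an exon in 2 of them. A region at its first exon (chr5:135399281-135400685) was called in all 8 lists, at 18.2, 26.7, 24.7 and 22 CPM in C4-2B and 41.1, 32.9, 36.0 and 33.5 CPM in MDV-R without overlap, but the strongest summit lay in a MACROH2A1 exon in 1 list only. Both regions also touch antisense genes (PITX1-AS1 and ENSG00000270021), and the peaks carry no strand, so these tags cannot be assigned to MACROH2A1. Its paralogue MACROH2A2 had a peak over an exon in 2 lists and no exonic summit.

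The variants H3.3 and H2A.Z had no peak. H3-3A and H3-3B, which both encode H3.3, and H2AZ1 and H2AZ2, which encode H2A.Z, held no peak anywhere between the start and end of the gene in any of the 8 lists. The share of single-copy stretches in their canonical transcripts was 6.98% for H3-3A, 87.4% for H3-3B, 88.2% for H2AZ1 and 90.004% for H2AZ2. Whether their RNA was present is not shown by peak lists.

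Histone regions were then compared between the lines in the 7 merged regions that had a histone exonic summit and a peak in all 8 lists, among 24 merged regions with such a summit, while 25.2% of all merged regions were called in all 8 lists. Of the 24, 13 were called in MDV-R lists alone, against 27.6% of merged regions, and 2 in C4-2B lists alone, against 13%. limma was fitted over all 9327 merged regions called in all 8 lists and p-values were adjusted over all of them. The 3 quantities, tags, local background and fold enrichment, are given in turn.

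IP tags rose in 3 of the 7 regions, against 20.8% of all regions tested, and fell in 2, against 14.8%. The log2 difference in CPM, MDV-R minus C4-2B, was +0.34 at H4C14 (SE 0.135, limma adjusted p = 0.0375). In the region over the first exon of MACROH2A1 it was +0.66 (SE 0.203, adjusted p = 0.00555). The strongest summit of that region lay in a MACROH2A1 exon in 1 list only, so this value cannot be assigned to the exon. The log2 difference was -0.32 at H2AX (SE 0.120, adjusted p = 0.0241) and -1.02 at H4C8 (SE 0.213, adjusted p = 1.82e-05), where the C4-2B mean was 2.02-fold that of MDV-R. The regions of H4C15 (+0.36, adjusted p = 0.155) and H2BC5 with H2BC6 (+0.28, adjusted p = 0.211) did not pass. The median over the 7 regions was +0.34 and that over all 9327 regions +0.06. The calls at the MACROH2A1 region and at H4C8 held without each of the 8 libraries in turn. That at H4C14 was lost without C4-2B replicate 2 or MDV-R replicate 1, 2 or 3 (adjusted p up to 0.157), and that at H2AX without any library but C4-2B replicate 1 or MDV-R replicate 2 (adjusted p up to 0.0935).

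Local background fell in 2 of the 7 regions, against 13.4% of all regions tested, and rose in 0, against 1.8%, with 2 regions at an unadjusted limma p under 0.05. The log2 difference was -1.72 at H2AX (SE 0.395, limma adjusted p = 0.00416), 3.30-fold lower in MDV-R, and -1.38 at H4C8 (SE 0.473, adjusted p = 0.0468), 2.60-fold lower. The other regions had differences of -0.09 to +0.53, and the median was -0.06 over the 7 regions and -0.48 over all. With each list centred on its median these became +0.43 and +0.01, 5 of the 7 regions had an unadjusted limma p under 0.05, H2AX kept its call (-1.23, adjusted p = 0.00393) and H4C8 lost it (-0.89, adjusted p = 0.114). Without centring, the H2AX difference held without each library in turn, and that at H4C8 only without MDV-R replicate 3 (adjusted p up to 0.137 without the others). In bulk RNA, fewer cells that express a gene and less of its RNA per cell cannot be told apart.

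Fold enrichment rose in 1 of the 7 regions, against 3.02% of all regions tested, and fell in 0, against 0.214%, with 1 region at an unadjusted limma p under 0.05. That region was H2AX, with a log2 difference of +1.30 (SE 0.363, limma adjusted p = 0.0283), which is 2.46-fold higher in MDV-R. The difference was -0.20 at H4C8, +0.11 at H4C15 and +0.41 at H4C14, which did not pass (limma adjusted p = 0.731, 0.853 and 0.454). The median over the 7 regions was +0.31 and that over all regions +0.44, and centring each list on its median took them to -0.09 and +0.03. With that centring the H2AX difference was +0.90 (adjusted p = 0.0942), and over all regions 84 rose and 165 fell in place of 282 and 20. The H2AX call was lost without any library but C4-2B replicate 2 or MDV-R replicate 3, and without MDV-R replicate 4 the difference was +0.92 (adjusted p = 0.278).

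**Figure D5:**
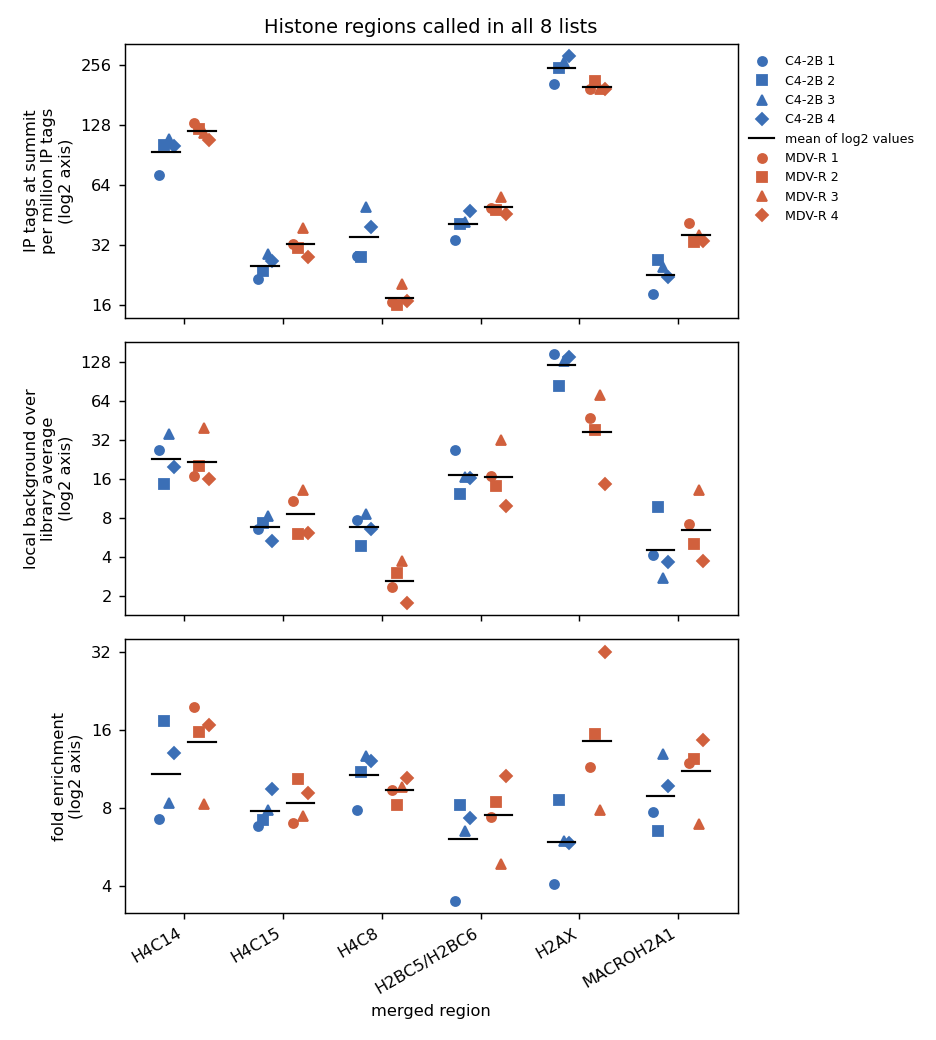
IP tags at the summit (top, CPM), local background over the library average (middle) and fold enrichment (bottom), all on log2 axes, in 6 histone regions called in all 8 lists; symbols are single lists, blue for C4-2B and orange for MDV-R, and lines are means of the log2 values. At H2AX the background of every MDV-R list lies below that of every C4-2B list while the tags differ less, and at H4C8 both quantities are lower in MDV-R.

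The classes also differed in enrichment relative to each other. The median log2 fold enrichment of the strongest exonic peak per replication-dependent gene, minus that per variant gene, was +0.96, +1.36, +0.89 and +0.84 in C4-2B and +0.37, +0.14, +0.45 and -1.66 in MDV-R. With summits in exons of any transcript, replication-dependent peaks were thus the more enriched in 7 of 8 lists. The means were 1.01 ± 0.235 and -0.17 ± 1.00 (SD, n = 4; p = 0.0286 by exact two-sided permutation), a difference of -1.19. Without MDV-R replicate 4, whose variant median was 3.78, the difference was -0.69 (exact permutation p = 0.0286), and without any C4-2B library the exact permutation p was 0.0857. With lists of equal size it was -0.75, over genes called in all 8 lists -0.82 and in canonical transcripts -1.11 (exact permutation p = 0.0286 for each). C4-2B replicate 1 called no replication-dependent gene in a canonical transcript and is left out of the last value. The genes behind the replication-dependent median differ between the lines, with 4 to 7 per list in C4-2B and 8 to 20 in MDV-R. In canonical transcripts there were 0 to 2 and 3 to 16 such genes. The variant median rests on 2 to 4 genes per list, which also differ. H2AJ enters it in C4-2B lists alone and MACROH2A1 in MDV-R replicates 3 and 4 alone. The value over genes called in all 8 lists rests on 4 replication-dependent genes and 2 variants, H2AX among them. That value is therefore not separate from the H2AX difference in fold enrichment given above.

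Genes around the histone mRNA life cycle were described from lists of symbols, to be read against the 50.2% of coding genes with an exonic summit in at least 1 list and the 26.6% with one in all 8. Of 14 genes of histone mRNA transcription and 3′ end processing, 8 had an exonic summit and 3 (NPAT, the activator of histone transcription, LSM10 and CASP8AP2) had one in all 8 lists. SLBP had none. Their 4 tested regions had a median log2 difference of -0.06 in tags, -0.73 in background and +0.66 in fold enrichment, and the lowest limma adjusted p was 0.0581, for the background at NPAT. Of 18 histone chaperones, 15 had a summit and 6 had one in all 8 lists, among them CHAF1A, HIRA and ATRX. In 12 chaperone regions the tags fell in 3, against 14.8% of all regions tested, the background fell in 4, against 13.4%, and fold enrichment rose in 1, against 3.02%. HJURP, the chaperone of the centromeric H3, had a log2 difference of -0.50 in tags (limma adjusted p = 0.000849) and of +1.55 in fold enrichment (adjusted p = 0.00613). Of 12 genes of S phase, when replication-dependent histone genes are transcribed, 6 had a summit and 2 had one in all 8 lists. All 3 of their tested regions fell in tags, by -0.71 at MCM2, -0.69 at MCM3 and -0.59 at TYMS on the log2 scale (limma adjusted p = 5.6e-06, 3.03e-06 and 0.00318), and 2 fell in background, where 14.8% and 13.4% of all regions did. The part of these S phase values in the histone results was not tested.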

How the data were processed

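MeRIP-seq of total RNA was analysed from 8 peak lists, 1 for each IP library with its input, and 1 merged region file. The authors aligned reads with STAR 2.7.0 to GRCh38, removed duplicates and multiply mapped reads (SAMtools 1.10) and used MACS2 3.0.0a6 to call peaks (extension 100 nt, genome size 300 Mb). The deposited lists hold fold enrichment (a ratio of IP pileup plus 1 over local background plus 1), −log10 p, −log10 q and a score of 10 times the −log10 q. The deposited files hold start, end and summit positions as other columns.

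IP tags and local background at each summit were solved from the fold enrichment and −log10 p, to within 0.005 of the latter. The IP and input totals of each library were inferred from the background values as well, and were not checked against read counts. The inferred IP totals were 0.864 to 1.21 M tags, and the number of lists limits the precision. Exons came from GENCODE 44. Counts per list were compared by exact two-sided permutation of 4 against 4 lists, and log2 values of regions by limma 3.58.1 (R 4.3.3; eBayes with trend, Benjamini-Hochberg over 9327 regions, adjusted p under 0.05), tested on simulated data. Members and gene lists were chosen with earlier results of these data known. Named genes were 12 chosen variants and H1 genes, members with a region in 4 lists of one line and none of the other, members past the limma threshold, and the 4 highest-ranked replication-dependent genes called in all 8 lists. Other genes, such as H2AC25, were named after their values were seen. Alternatives were peaks with −log10 q of at least 5, lists of equal size, canonical transcripts, peak overlap, centring, a replicate block, another union of regions, eBayes without trend and leaving out each library. Same-numbered libraries did not deviate together (correlations -0.0749 to 0.0437), so no block was used. Some values, of 1 histone gene and of some marker genes, are not reported here.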

Additional observations from a re-analysis of the deposited data

Results flagged for a closer look

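Of 60 groups of 4 lists tested, 6 held a list far from the other lists of its line. Chance gives about 1 in 20 for independent groups of continuous values. Here several groups share a peak and the variant gene count has ties, so the 6 cannot be set against that rate. At H2AX, MDV-R replicate 2 had 212.471 CPM and the next list 193.097 CPM. At H1-10, by the strongest peak of each list, MDV-R replicate 4 had a fold enrichment of 12.7813 against 4.48296 in the next list. It had a local background of 25.977 times the library average against 76.9457. The fold enrichments are from different sites, the 5′UTR in replicate 4 and coding sequence in the next list, replicate 2. At the 5′UTR site MDV-R replicate 3 had 3.91363. At H3C6, MDV-R replicate 3, the MDV-R library with the smallest input, had 51.608 CPM against 45.7334 and a local background of 18.7672 against 7.41706. C4-2B replicate 1, the smallest list, had 2 variant genes with an exonic summit where each other C4-2B list had 4.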

How the results depend on the processing

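No called difference changed direction under these alternatives. Among differences that were not called, centring each list on its median turned fold enrichment from +0.11 to -0.29 at H4C15, from +0.31 to -0.09 at both MACROH2A1 and H2BC5 with H2BC6, and background from -0.09 to +0.40 at H4C14 and from -0.06 to +0.43 at H2BC5 with H2BC6. With lists of equal size, the histone gene difference between the lines was 1.25 (exact permutation p = 0.4) and the replication-dependent one 1 (p = 0.314, exact permutation). The histone difference was 7.5 in canonical transcripts (exact permutation p = 0.114) and 8.25 with any peak overlap (exact permutation p = 0.0857). With replicate numbers as a block, which do not pair these libraries and cannot give an exact sign-flip p under 0.125, the values were 7 for both counts and -1.19 for the class difference, each at p = 0.125. In limma, centring left 0 regions for fold enrichment (2 at an unadjusted p under 0.05) and 1 for background. The block left 1 region for background, as did regions called in at least 3 lists of each line, chosen after seeing the data. eBayes without trend left 3 for tags.

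Without each library in turn, the differences ranged from 4.42 to 8.42 histone genes, 4.58 to 8.58 replication-dependent genes, -0.5 to 0.167 variant genes and -1.39 to -0.69 in class difference. Region calls ranged from 0 to 1 for fold enrichment, 3 to 5 for tags and 1 to 2 for background. Of the remaining alternatives, 30 of 42 for the comparisons and 45 of 53 for single regions and the motif share were counted as unchanged. For region counts this allowed small shifts, such as tags in 4 regions in place of 5 with the block, where H2AX lost its call. The tallies also include results that had no call, the variant gene count and the motif share. Leaving out single libraries kept 28 of 56 comparisons and 41 of 64 single-region results unchanged by the same count. Centring moved the split of all regions from 1937 higher and 1382 lower to 2321 and 2727 for tags, and from 168 and 1253 to 616 and 910 for background. The GGAC share at histone summits was 48.0% in canonical transcripts. Peak lists give no value where no peak was called, so low levels are not measured.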
